A study of Mus musculus with 15 samples.

Results

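The mesenchymal transition transcription factors are 8 genes of 37991 in the deposited count table, chosen by name: Snai1, Snai2, Twist1, Twist2, Zeb1, Zeb2, Prrx1 and Prrx2. All 8 names matched a row, 7 had counts, and those 7 were among the 17999 genes with enough counts to be tested. These factors drive or maintain the epithelial to mesenchymal transition, in which cells lose their tight junctions and E-cadherin and become motile. Snail and Zeb proteins are zinc finger repressors that bind E-box sequences such as CACCTG, Twist proteins are basic helix-loop-helix factors that bind E-boxes as dimers, and Prrx proteins are homeodomain factors of mesenchyme. The same families act in the heart when cells leave the epicardium and the endocardium, and their loss accompanies the mesenchymal to epithelial transition of fibroblasts that enter reprogramming.

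RNA was sequenced from 15 libraries in 5 groups of 3, from mouse cells whose strains, C57BL/6 and 129J/SvE, were mixed, with the genotype given as Wildtype (WT) throughout. Secondary mouse embryonic fibroblasts (MEFs) at passage 3 were the starting cells, and such cells are known to carry inducible reprogramming factors, which every later group then shares. Day 9 cultures were unsorted and had been 6 days in reprogramming medium, then 2 in transdifferentiation medium and 1 in ieCPC basal medium with BACS. Induced expandable cardiovascular progenitor cells (ieCPCs), sorted on day 13, were sampled at passage 3 (P3) and passage 12 (P12), and CM derivatives were ieCPCs kept for 25 days in differentiation medium. The labels do not say which passage gave rise to the CM derivatives, nor whether replicates were separate cultures, and all p-values therefore reflect the spread among libraries, which may be technical.

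Between 21823056 and 29996464 counts were assigned to genes per library. Mitochondrial genes took 20.8% to 28.3% of counts outside the CM derivatives and 52.0% to 59.4% in them, and their part in the results was not tested beyond the scaling given at the end. CM replicate 3 stood apart from the other CM libraries, and the calls on the factors in the CM comparisons were the same in number without it. Fibroblast markers (8 genes) summed to between 10796 and 17720 counts-per-million (CPM) over all libraries, with none of the 8 under 1 CPM in any group. Col1a1 and Col1a2 had the highest means of the 8 in every group, and other markers moved apart under this sum. In MEFs, P3 ieCPCs and CM derivatives, Thy1 was at 415, 1.18 and 12.0 CPM and S100a4 at 83.6, 7.03 and 60.2. In the same groups Dcn was at 53.6, 659 and 3296 CPM and Lum at 56.3, 1250 and 3271. Epithelial markers (Cdh1, Epcam, Krt8, Krt18, Esrp1) summed to at most 1.09 CPM in MEFs, 161 to 178 at day 9 and 12.6 to 24.3 later. Cardiomyocyte markers (7 genes) summed to 4695 to 9461 CPM in CM derivatives and at most 68.4 elsewhere. Cardiac progenitor markers (8 genes) summed to 537 to 608 CPM in ieCPCs, with Nkx2-5 under 1 CPM there and Tbx5 also at P12. They summed to 125 to 129 CPM at day 9, 198 to 210 in MEFs and 638 to 825 in CM derivatives, where none of the 8 was under 1 CPM. Most of the MEF sum was Pdgfra (147 CPM) and Mef2c (38.6). From MEFs to day 9 the means of Pdgfra, Mef2c and Tbx5 went down. Those of Gata4 (0.292 to 11.2 CPM), Tbx20 (0.505 to 1.93), Kdr (2.82 to 12.9) and Isl1 (1.11 to 1.57) went up. Nkx2-5 was at 0 in both groups. From P3 to P12 the means of Pdgfra (154 to 270 CPM), Mef2c, Kdr and Isl1 went up. Over that step Gata4 (75.4 to 28.9 CPM), Tbx20 (205 to 180), Tbx5 (6.64 to 0.669) and Nkx2-5 went down. From P3 to CM derivatives Kdr (18.2 to 1.76 CPM) and Mef2c (81.3 to 78.7) went down by mean and the other members went up. Pdgfra is also in the fibroblast list. Smooth muscle markers (4 genes) summed to 2862 to 2919 CPM in MEFs, 1632 to 1775 at day 9 and 1478 to 1539 at P3. At P12 the sum was 2723 to 2927 CPM and in CM derivatives 881 to 1349. Most of each sum was Acta2, with means of 2541 CPM in MEFs and 2551 at P12. In the same groups Tagln was at 255 and 150 CPM, Cnn1 at 63.8 and 30.4 and Myh11 at 27.8 and 82.0. From MEFs to day 9 Myh11 went up to 42.2 CPM while the others went down by mean. Chondrocyte and bone markers (5 genes) summed to 61.6 to 82.8 CPM in MEFs, day 9 and P3 libraries, 112 to 119 at P12 and 30.6 to 61.3 in CM derivatives. Their members did not move together, and most of the MEF sum was Runx2 (mean 75.6 CPM). From P3 to P12 the means of Runx2 (8.12 to 54.2 CPM) and Sp7 (3.88 to 17.0) went up. Those of Col2a1 (53.2 to 33.1 CPM) and Acan (14.2 to 10.1) went down, and Bglap was under 1 CPM. Macrophage markers (7 genes) summed to 281 to 299.6 CPM in MEFs, 7.28 to 8.82 at day 9, 22.1 to 37.0 in ieCPCs and 152 to 197 in CM derivatives. Outside day 9 most of each sum was Lyz2, and C1qa, C1qb and C1qc were at 0 at day 9 and in ieCPCs. In bulk RNA, fewer cells of a type and less RNA per cell cannot be told apart.

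Across the groups the factors did not move as a block. Zeb2 was the only one of the 7 that was higher in every later group than in MEFs, though its rise at day 9 was small and depended on single libraries. Twist1, Twist2 and Prrx1 were lower than in MEFs in every later group. Snai1, Prrx1 and Prrx2 were low in P3 ieCPCs and higher again in P12 ieCPCs, and Snai2 had its lowest mean at day 9. CPM below are counts-per-million after TMM scaling of library sizes, and calls were made at an adjusted p under 0.05 by edgeR's quasi-likelihood test with Benjamini-Hochberg adjustment over all genes tested. The words rose and fell refer to such calls, and all adjusted p in the text come from this test.

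**Figure D1:**
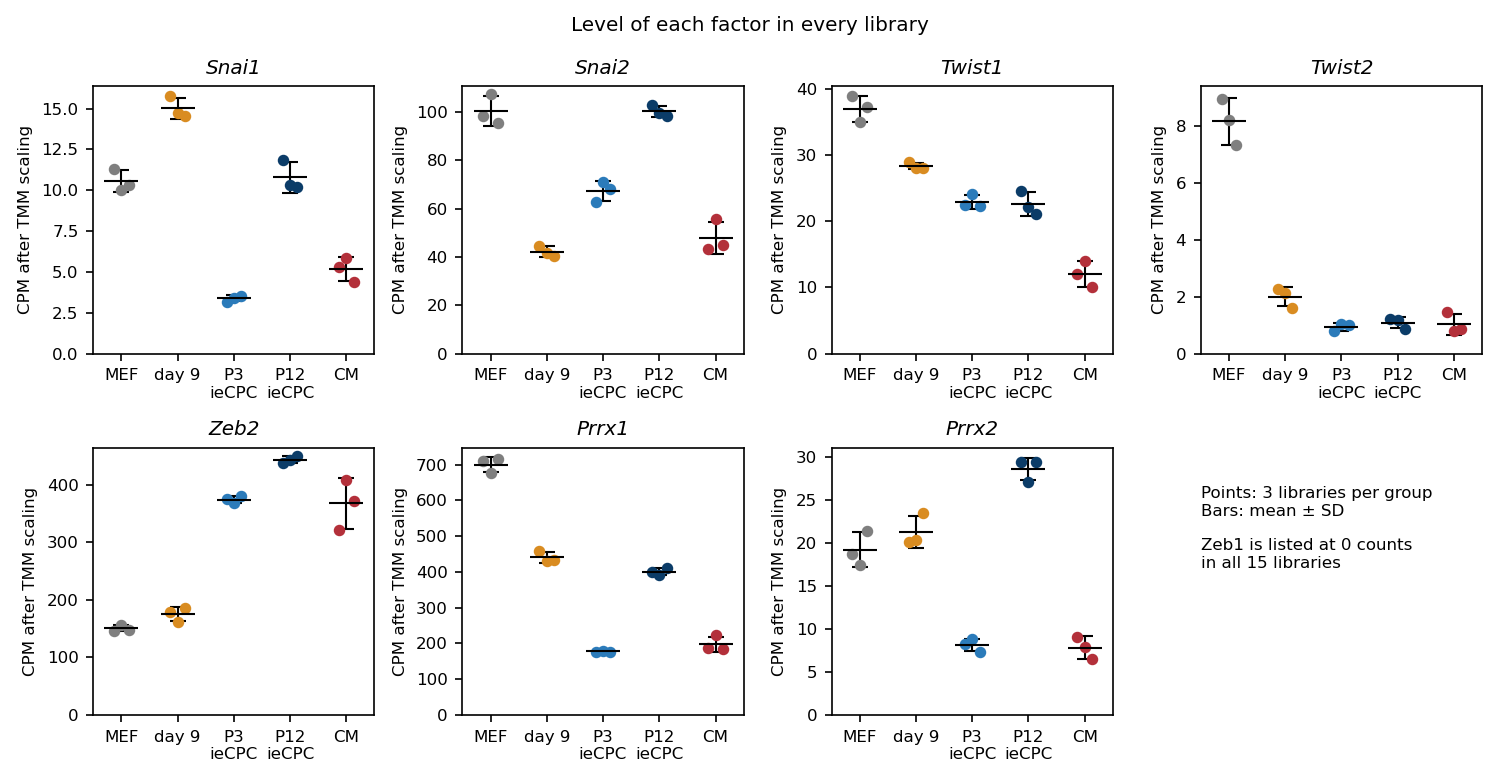
Level of each of the 7 factors with counts, in CPM after TMM scaling on the vertical axis, for the 5 groups on the horizontal axis; points are the 3 libraries of a group and bars the mean and SD. Zeb2 sits at 147 to 186 CPM in MEFs and day 9 cultures and at 321 to 450 CPM in the other groups, while Twist2 is at 7.30 to 8.94 CPM in MEFs and at most 2.26 CPM elsewhere.

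The Snail family is represented by Snai1, the founding repressor of E-cadherin, and Snai2 (Slug), its relative in neural crest and fibroblasts. Snai1 (ENSMUSG00000042821) lies on the plus strand of chromosome 2, from 167363695 to 167368314 on mm9, in a model of 3 exons. Its promoter window is printed because Snai1, like both Prrx genes, fell from day 9 to P3 and rose from P3 to P12, and the Prrx windows are given with those genes. From MEFs to day 9 the 3 genes did not share a direction. The window is chr2:167537945-167538244 on the plus strand of GRCm38.p6, from RefSeq, and holds 250 bases before and 50 after the annotated start. Capitals mark an E-box, CACCTG, whose first letter lies 126 bases before the start.

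Snai1 promoter: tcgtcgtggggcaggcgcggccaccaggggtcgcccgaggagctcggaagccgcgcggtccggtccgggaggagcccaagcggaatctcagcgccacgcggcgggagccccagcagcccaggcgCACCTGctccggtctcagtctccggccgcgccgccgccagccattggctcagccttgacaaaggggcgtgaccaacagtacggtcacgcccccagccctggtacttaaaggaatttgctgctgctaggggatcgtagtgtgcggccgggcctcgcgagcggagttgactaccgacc

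Snai1 was measured at 11.3, 10.0 and 10.3 CPM in MEFs, 15.8, 14.8 and 14.6 CPM at day 9, 3.17, 3.42 and 3.53 CPM in P3 ieCPCs, 11.9, 10.3 and 10.2 CPM in P12 ieCPCs, and 5.31, 5.87 and 4.40 CPM in CM derivatives. Day 9 libraries were the highest and P3 libraries the lowest, with no overlap with any other group, while the MEF and P12 libraries overlapped. Snai1 rose at day 9 over MEFs by 0.51 ± 0.10 (log2 fold change ± SE, here and below), which is 1.42-fold (adjusted p = 0.000111). It then fell 4.45-fold from day 9 to P3 (adjusted p = 7.51e-14). P12 ieCPCs had 3.19-fold more Snai1 RNA than P3 ieCPCs (adjusted p = 4.13e-11) and were not distinguished from MEFs (adjusted p = 0.792). CM derivatives were 1.55-fold above P3 (adjusted p = 0.000214), 2.07-fold below P12 and 2.02-fold below MEFs.

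Snai2 (ENSMUSG00000022676), on the plus strand of chromosome 16 from 14705945 to 14709488 (mm9), was the member that followed another course. It was measured at 98.4, 107 and 95.5 CPM in MEFs, 44.7, 41.6 and 40.5 CPM at day 9, 63.0, 71.3 and 68.2 CPM in P3 ieCPCs, 103, 99.7 and 98.4 CPM in P12 ieCPCs, and 43.5, 55.6 and 44.8 CPM in CM derivatives. MEF and P12 libraries shared the top of the range (adjusted p = 0.996), P3 libraries lay between, and the day 9 and CM libraries overlapped at the bottom. Snai2 fell by 1.25 ± 0.08 at day 9 against MEFs, which is 2.38-fold (adjusted p = 1.89e-12), in the same contrast in which Snai1 rose. From day 9 to P3 it rose 1.60-fold (adjusted p = 5.44e-08) while Snai1 fell, and from P3 to P12 both rose, Snai2 by 1.49-fold (adjusted p = 1.18e-06). In CM derivatives Snai2 was 1.41-fold below P3 (adjusted p = 6.77e-06), 2.09-fold below P12 and 2.09-fold below MEFs.

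The Twist family declined. Twist1, a regulator of cranial and limb mesenchyme that also acts in heart cushion cells, and Twist2 (Dermo1), a factor of dermal fibroblasts, were both highest in MEFs. Twist1 (ENSMUSG00000035799, chromosome 12, 34642536 to 34644682, plus strand, mm9) was measured at 38.9, 35.0 and 37.3 CPM in MEFs, 29.0, 28.1 and 28.2 CPM at day 9, 22.5, 24.1 and 22.3 CPM in P3 ieCPCs, 24.6, 22.2 and 21.1 CPM in P12 ieCPCs, and 12.0, 14.1 and 10.1 CPM in CM derivatives. The libraries stepped down from MEFs to day 9, to the overlapping ieCPC passages and to CM derivatives. Twist1 fell 1.30-fold at day 9 (adjusted p = 0.00028), a further 1.24-fold at P3 (adjusted p = 0.00247) and 1.90-fold from P3 to CM derivatives (adjusted p = 9.02e-09). From P3 to P12 the log2 difference was -0.02 ± 0.08 (adjusted p = 0.886). CM derivatives held 3.06-fold less Twist1 RNA than MEFs (adjusted p = 2.39e-13).

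Twist2 (ENSMUSG00000007805, chromosome 1, 93698038 to 93744605, plus strand, mm9) had the widest range of the 7 factors, with 8.71-fold between its highest and lowest group. It was measured at 8.94, 8.21 and 7.30 CPM in MEFs, 2.26, 2.12 and 1.61 CPM at day 9, 0.783, 1.03 and 0.99 CPM in P3 ieCPCs, 1.22, 1.17 and 0.864 CPM in P12 ieCPCs, and 1.45, 0.787 and 0.856 CPM in CM derivatives. MEF libraries stood clear of all others, day 9 libraries lay between, and the last 3 groups overlapped. Twist2 fell by 2.03 ± 0.18 at day 9, which is 4.07-fold (adjusted p = 1.23e-09), and 2.13-fold further at P3 (adjusted p = 0.000228). At 14 to 32 raw counts per library in ieCPCs and CM derivatives, differences among these 3 groups were not detectable, with a log2 difference of 0.21 ± 0.25 from P3 to P12 (adjusted p = 0.550) and 0.14 ± 0.28 from P3 to CM derivatives (adjusted p = 0.681).

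Zeb2 (Sip1), a large zinc finger repressor of E-cadherin that also serves neural crest and blood cells, ran the other way. Zeb2 (ENSMUSG00000026872) lies on the minus strand of chromosome 2, from 44839154 to 44972915 (mm9), and its 16 exons share 458 bases with the antisense model Gm13476, which held 22 to 65 counts per library against 3829 to 12115 for Zeb2. Whether the authors counted by strand is not given in the sources used here. Zeb2 was measured at 147, 157 and 148 CPM in MEFs, 178, 162 and 186 CPM at day 9, 375, 369 and 380.0 CPM in P3 ieCPCs, 437, 444 and 450 CPM in P12 ieCPCs, and 321, 409 and 373 CPM in CM derivatives. Every ieCPC and CM library was above every MEF and day 9 library, and the CM libraries spanned the P3 values. Zeb2 rose by 1.31 ± 0.07 from MEFs to P3, which is 2.48-fold (adjusted p = 7.92e-14), mostly between day 9 and P3 (2.14-fold, adjusted p = 2.68e-12). P12 was 1.18-fold above P3 (adjusted p = 0.00633), and P3 and CM derivatives differed by a log2 of -0.03 ± 0.07 (adjusted p = 0.752). The first step was small, 1.16-fold from MEFs to day 9 (adjusted p = 0.00965), and was no longer called without MEF replicate 1 (adjusted p = 0.0565), without day 9 replicate 1 (adjusted p = 0.0574) or without day 9 replicate 3 (adjusted p = 0.104). Macrophages also express Zeb2, and the 7 macrophage markers summed to 281 to 299.6 CPM in MEFs, 7.28 to 8.82 at day 9, 36.1 to 37.0 at P3, 22.1 to 24.2 at P12 and 152 to 197 in CM derivatives. From day 9 to P3 Lyz2 went from 2.22 to 31.2 CPM. Over that step Cd68 was at 4.80 and 4.04 CPM, Csf1r at 1.09 and 1.22, Ptprc under 1 CPM and the C1q genes at 0. The part of macrophages in the Zeb2 levels was not tested.

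Zeb1, the close relative of Zeb2, was listed at 0 in all 15 libraries. Of 1643 named genes on chromosomes whose models reach 8000 bases, Zeb1 was the only one at 0 in every library, and 3 predicted models within its span, Gm10125, AC127028.1 and Gm16147, did hold counts. The cause was not tested. Its listed 0 is therefore not read as a level, and it enters no comparison, sum or fold.

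Prrx1 and Prrx2 are paired-related homeobox genes of limb, craniofacial and heart mesenchyme, and Prrx1 is a marker of fibroblast progenitors. Prrx1 (ENSMUSG00000026586) lies on the minus strand of chromosome 1, from 165175247 to 165243841, and Prrx2 (ENSMUSG00000039476) on the plus strand of chromosome 2, from 30690492 to 30736761, both on mm9. Their RefSeq promoter windows on GRCm38.p6, cut as for Snai1, are chr1:163313601-163313900 on the minus strand and chr2:30845117-30845416 on the plus strand. Capitals mark the homeodomain core TAATTA, whose first letter in Prrx1 lies 173 bases before the start.

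Prrx1 promoter: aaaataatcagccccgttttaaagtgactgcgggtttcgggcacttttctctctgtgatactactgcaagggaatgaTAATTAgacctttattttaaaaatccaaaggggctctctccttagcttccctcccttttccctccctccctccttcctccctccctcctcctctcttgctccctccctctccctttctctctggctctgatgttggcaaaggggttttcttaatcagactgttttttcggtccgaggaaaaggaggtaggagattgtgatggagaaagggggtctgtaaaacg

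Prrx2 promoter: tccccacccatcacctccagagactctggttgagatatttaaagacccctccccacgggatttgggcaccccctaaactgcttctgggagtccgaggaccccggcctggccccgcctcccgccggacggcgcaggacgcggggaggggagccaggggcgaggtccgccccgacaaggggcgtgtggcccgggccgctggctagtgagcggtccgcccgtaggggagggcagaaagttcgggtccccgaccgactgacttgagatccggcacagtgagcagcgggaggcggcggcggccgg

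The 3 windows of the genes that were low at P3 and higher at P12 shared none of the motifs searched, which were CACCTG (or CAGGTG on the other strand), the Twist E-box CATATG and TAATTA, and the matches did not overlap. CACCTG was found in Snai1 only, TAATTA in Prrx1 only, and Prrx2 held none, while over 32851 RefSeq promoter windows of the same length 20.2% held CACCTG, 3.92% CATATG and 5.29% TAATTA. Windows on chromosome 18, where Zeb1 lies, were left out. Of the other factors 6 were matched to windows, and those of Twist1, Twist2 and Zeb2 held none of the 3 motifs. The G and C content was 70.0% in the Snai1 window, 70.3% in Prrx2 and 47.7% in Prrx1.

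Prrx1 was measured at 709, 676 and 714 CPM in MEFs, 458, 431 and 432 CPM at day 9, 177, 179.9 and 176 CPM in P3 ieCPCs, 399.7, 392 and 411 CPM in P12 ieCPCs, and 188, 222 and 183 CPM in CM derivatives. MEF libraries were highest, day 9 and P12 libraries lay close without overlap (adjusted p = 0.055), and P3 and CM libraries shared the bottom without overlap. Prrx1 fell by 0.67 ± 0.06 at day 9 (1.59-fold, adjusted p = 2.30e-09) and by 1.31 ± 0.06 from day 9 to P3 (2.48-fold, adjusted p = 1.36e-14), so that P3 ieCPCs held 3.94-fold less than MEFs (adjusted p = 6.15e-18). It rose by 1.17 ± 0.06 from P3 to P12, which is 2.26-fold (adjusted p = 3.80e-13). CM derivatives were 2.03-fold below P12 and 3.54-fold below MEFs. Against P3 they were 1.11-fold higher (adjusted p = 0.0325), a call that was lost without CM replicate 2 (adjusted p = 0.387) or without any of the P3 libraries (adjusted p = 0.0712, 0.0542 and 0.0703 without replicates 1, 2 and 3). It was also lost with upper-quartile scaling (adjusted p = 0.127), without a filter beyond 1 count (adjusted p = 0.0642) and with only the 6 libraries compared (adjusted p = 0.0843).

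Prrx2 was measured at 18.8, 17.5 and 21.5 CPM in MEFs, 20.1, 20.4 and 23.5 CPM at day 9, 8.23, 8.87 and 7.39 CPM in P3 ieCPCs, 29.4, 27.2 and 29.4 CPM in P12 ieCPCs, and 9.11, 7.97 and 6.48 CPM in CM derivatives. P12 libraries were above all others, MEF and day 9 libraries overlapped, and P3 and CM libraries overlapped at the bottom. From MEFs to day 9 the log2 difference was 0.15 ± 0.10 (adjusted p = 0.199). Prrx2 then fell by 1.39 ± 0.10 at P3, which is 2.61-fold (adjusted p = 6.93e-11), and rose by 1.81 ± 0.10 from P3 to P12, which is 3.51-fold (adjusted p = 1.79e-12). P12 ieCPCs were 1.49-fold above MEFs, and CM derivatives were 3.63-fold below P12 and 2.44-fold below MEFs (adjusted p = 6.37e-10).

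**Figure D2:**
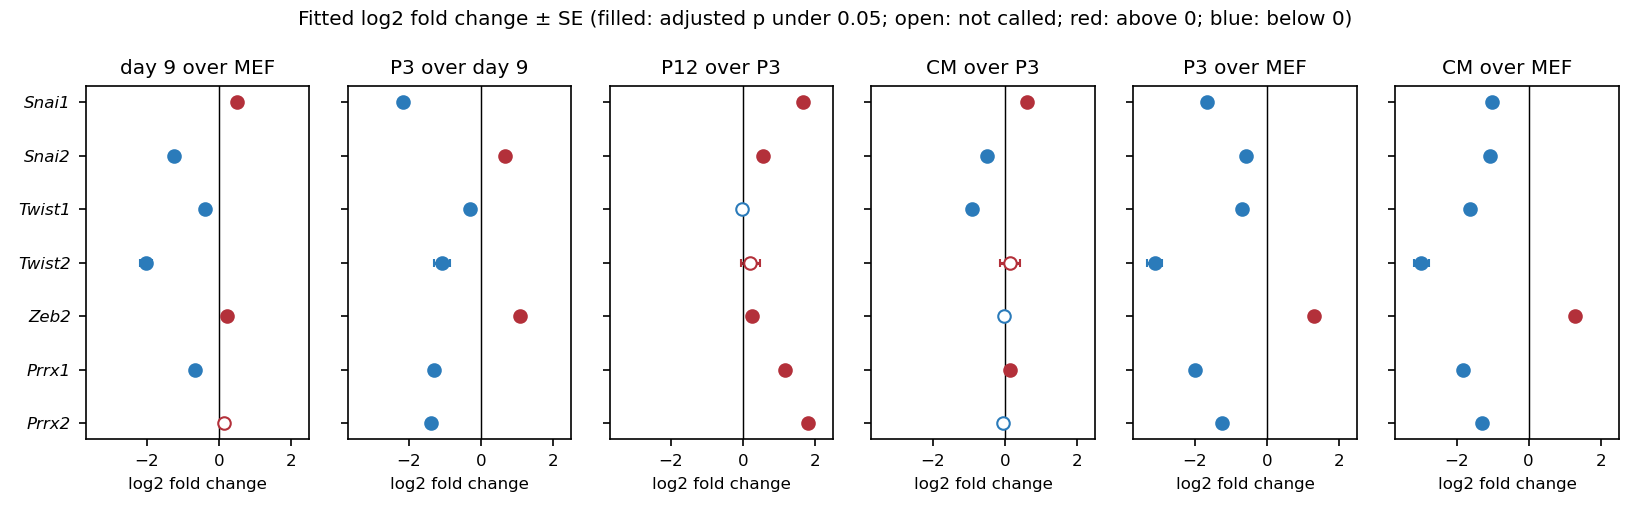
Fitted log2 fold change with its SE on the horizontal axis for the 7 factors (rows) in 6 comparisons (panels); filled points have an adjusted p under 0.05, open points were not called, red is above 0 and blue below. Zeb2 is at 1.31 in P3 over MEF beside 6 factors below 0, and 5 factors are filled above 0 in P12 over P3.

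Counted over the 7 tested factors, day 9 cultures had 2 higher and 4 lower than MEFs, where 29.7% of all tested genes were called higher and 27.4% lower. The median log2 fold change was -0.38 over the factors and 0.05 over all genes tested. From day 9 to P3, 2 factors rose (Snai2, Zeb2) and 5 fell, against 28.4% and 32.3% of all genes, with medians of -1.09 and -0.03. P3 ieCPCs had 1 factor higher (Zeb2) and 6 lower than MEFs, against 33.3% and 32.5% of all genes, with medians of -1.24 and 0.03. Comparisons that share a group, such as these with P3 or MEFs, share those libraries and are not independent of each other.

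From P3 to P12, 5 of the 7 factors rose and none fell, also at an unadjusted p under 0.05 and by DESeq2. Twist1 and Twist2 were not called, and 17.3% of all genes were called higher and 19.5% lower. Smooth muscle markers went from 1478 to 1539 CPM at P3 to 2723 to 2927 at P12. Most of either sum was Acta2, and each of these markers was higher by mean at P12. Chondrocyte and bone markers went from 76.0 to 82.8 CPM to 112 to 119, with Runx2 and Sp7 higher by mean and Col2a1 and Acan lower. The part of either list in the rise was not tested. The medians were 0.57 over the factors and -0.00123 over all genes. With upper-quartile scaling 58.8% of all called genes were higher instead of 47.1%, and the factors' calls were the same. CM derivatives had 2 factors higher (Snai1, Prrx1) and 2 lower (Snai2, Twist1) than P3, against 31.9% and 31.2% of all genes, with medians of -0.03 and -0.01. Against MEFs they had 1 higher and 6 lower, against 35.9% and 34.7% of all genes, with medians of -1.29 and 0.03. Against P12, 6 fell and Twist2 was not called (adjusted p = 0.833), where 31.3% of all genes rose and 30.8% fell, and P12 against MEFs gave 2 higher, 3 lower and Snai1 and Snai2 not called, where 33.7% were higher and 33.9% lower.

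Per length the factors can be set beside each other. Divided by the length of the gene model, the sum over the 7 factors was 166 ± 1.35 CPM per kb in MEFs (SD, n = 3), 109 ± 2.98 at day 9, 89.5 ± 2.89 in P3 ieCPCs, 144 ± 2.92 in P12 ieCPCs and 75.7 ± 8.33 in CM derivatives. Prrx1 had the largest share of this sum in MEFs (38.1%) and at day 9 (36.6%). Snai2 had the largest share in P3 (37.1%), P12 (34.2%) and CM derivatives (31.1%). Zeb2 went from 4.63% of the sum in MEFs and 8.20% at day 9 to 21.3% in P3, 15.6% in P12 and 24.8% in CM derivatives. Twist2 had the lowest level per length in every group, at 6.13 CPM per kb in MEFs and at most 1.5 elsewhere. These shares rest on the annotated length, and the isoforms in use were not measured.

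**Figure D3:**
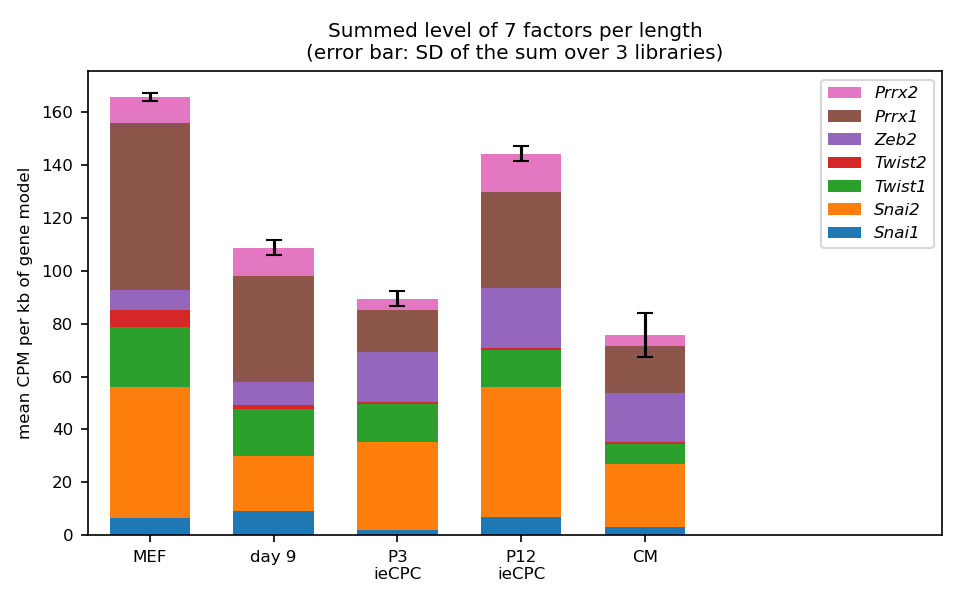
Stacked bars of mean CPM per kb of gene model for the 7 factors (colours) in the 5 groups, with the SD of the sum over 3 libraries. The bar is tallest in MEFs at 166 CPM per kb, lowest in CM derivatives at 75.7, and the Zeb2 segment goes from 7.67 in MEFs to 22.6 in P12.

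The balance within each family shifted. The log2 ratio of Snai1 to Snai2 per length was -2.93 ± 0.16 in MEFs (SD, n = 3), -1.17 ± 0.01 at day 9, -4.00 ± 0.06 at P3, -2.90 ± 0.09 at P12 and -2.88 ± 0.16 in CM derivatives. Snai2 thus exceeded Snai1 in every library, by 2.25-fold at day 9 and by 16-fold at P3, and the day 9 and P3 libraries overlapped with no other group. The log2 ratio of Twist1 to Twist2 was lowest in MEFs (1.91 ± 0.14) and was 3.56 ± 0.25 at day 9, 4.34 ± 0.19 at P3, 4.12 ± 0.19 at P12 and 3.31 ± 0.56 in CM derivatives, with MEF libraries apart from the rest. Prrx1 exceeded Prrx2 in every library, with a log2 ratio of 2.69 ± 0.12 in MEFs and 1.30 ± 0.04 at P12 and intermediate values of 1.87 at day 9, 1.94 at P3 and 2.16 in CM derivatives. For these ratios the smallest p of an exact 2-sided permutation test between groups of 3 would be 0.1, and no test is given.

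**Figure D4:**
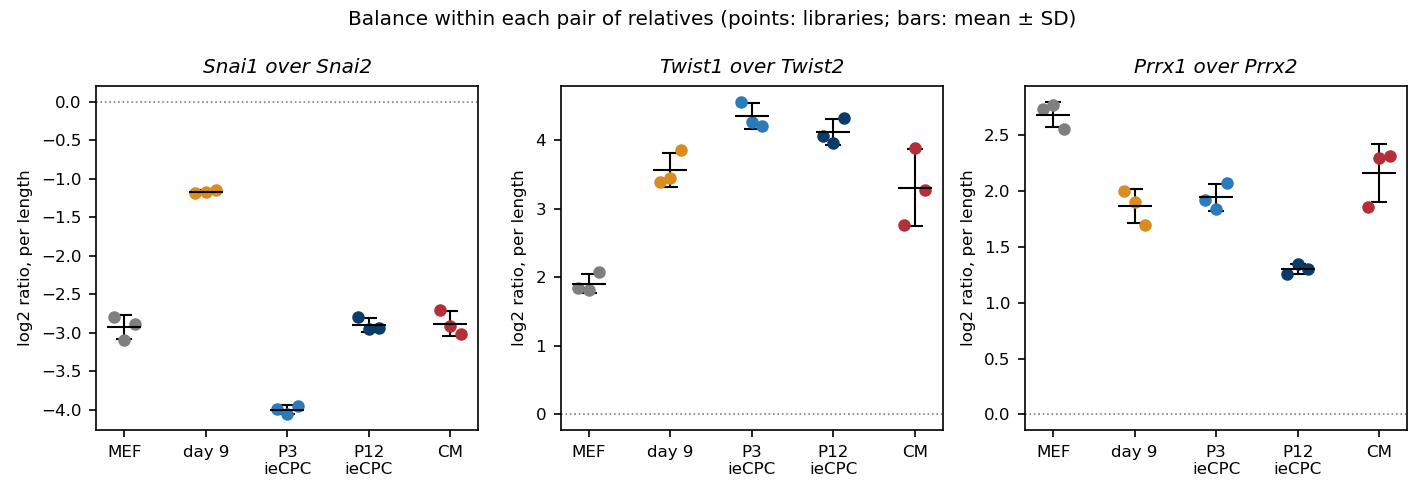
Log2 ratio of CPM per kb within each family (vertical axis), for Snai1 over Snai2, Twist1 over Twist2 and Prrx1 over Prrx2, in the 5 groups; points are libraries and bars the mean and SD. The Snail ratio runs from -1.18 to -1.15 at day 9 and from -4.06 to -3.95 at P3.

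Epithelial genes that Snail, Zeb and Twist factors are known to repress were counted as a list, and their link to the factors was not tested. Here and in the lists below, percentages in parentheses are the shares of all tested genes called in the same directions, in the same order. No list was tested against these shares. Of 22 listed genes 21 were tested. At day 9 against MEFs, 18 rose and none fell by edgeR (29.7%, 27.4%), nor did any fall at an unadjusted p under 0.05 or by DESeq2. The median log2 fold change was 5.82, or 4.98 with 4 genes at 0 in MEFs set to their bound. Cdh1, which encodes E-cadherin, was at 0.152 ± 0.0824 CPM in MEFs and 77.4 ± 2.88 CPM at day 9 (SD, n = 3, adjusted p = 7.68e-20 by edgeR). Cldn6, a claudin of tight junctions, had no count in MEFs and 34.8 ± 1.90 CPM at day 9, which is at least 922-fold higher with the floor of 3 counts over the group. From day 9 to P3, 17 fell and 1 rose (32.3%, 28.4%), with a median of -2.25. The 1 that rose was Llgl2, named after its values were seen. Cdh1 fell 17.7-fold to 4.36 ± 0.951 CPM, and Esrp1, a splicing factor of epithelial isoforms, fell 24.4-fold from 13.6 ± 0.198 CPM.

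P3 ieCPCs still differed from MEFs in epithelial genes, with 13 higher and 3 lower (33.3%, 32.5%). Dsp, which encodes desmoplakin of desmosomes, went from 0.801 ± 0.455 CPM in MEFs to 112 ± 2.06 CPM at P3. Desmoplakin also belongs to the junctions of heart muscle. Apart from Dsp and Tjp1 (197 CPM in MEFs, 174 at P3), the highest P3 mean in this list was 4.60 CPM, for Llgl2. At P3 Krt18 was at 4.20 CPM, Cldn6 at 3.61, Krt8 at 3.49, Epcam at 1.33 and Esrp1 at 0.549. From P3 to P12, 1 rose and 4 fell (17.3%, 19.5%), among them Dsp by 5.05-fold, while Cdh1 stayed at 4.42 ± 0.754 CPM. CM derivatives had 9 higher and 6 lower than P3 (31.9%, 31.2%). Cdh1 was 3.62-fold lower at 1.22 ± 0.477 CPM and Krt18, a keratin of simple epithelia and early heart muscle, 2.99-fold higher. Against MEFs the CM derivatives had 13 higher and 1 lower (35.9%, 34.7%). At day 9, when Cdh1 was highest, Snai2, Twist1, Twist2 and Prrx1 were below MEFs. Snai1 was at its own highest level, Zeb2 was 1.16-fold above MEFs and Prrx2 was not called.

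Of the mesenchymal genes of the transition, all 20 listed were tested. At day 9, 7 rose and 11 fell against MEFs (29.7%, 27.4%), with a median of -0.36. Thy1, a surface marker of fibroblasts, fell 7.60-fold from 415 ± 17.9 CPM. From day 9 to P3, 3 rose and 14 fell (28.4%, 32.3%). Thy1 went down 45.9-fold to 1.18 ± 0.142 CPM and Cdh2, which encodes N-cadherin, up 2.85-fold to 493 ± 7.87 CPM. P3 ieCPCs had 4 higher and 15 lower than MEFs (33.3%, 32.5%). From P3 to P12, 11 rose and 4 fell (17.3%, 19.5%), among them Tnc, the matrix protein tenascin C, up 3.18-fold to 765 ± 14 CPM. CM derivatives had 12 higher and 4 lower than P3 (31.9%, 31.2%), with Fn1 (fibronectin) up 2.62-fold to 8635 ± 1521 CPM. They had 6 higher and 14 lower than MEFs (35.9%, 34.7%).

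**Figure D5:**
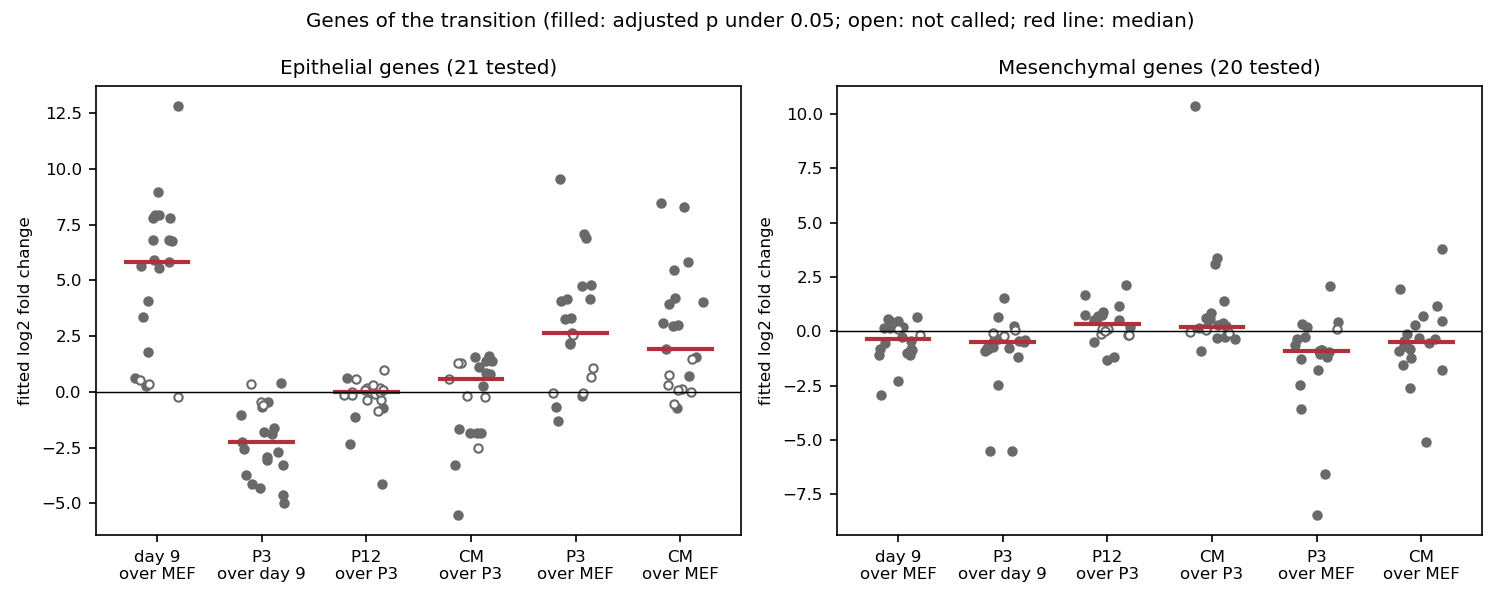
Fitted log2 fold change (vertical axis) of the 21 epithelial and 20 mesenchymal genes tested, 1 point per gene, in 6 comparisons; filled points have an adjusted p under 0.05, open points were not called and red lines are medians. The epithelial median is 5.82 at day 9 over MEF and -2.25 at P3 over day 9, where genes at 0 in a group carry a fitted value that is no bound.

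Twist proteins pair with E proteins or with Hand proteins, and Id proteins take the E proteins away. Of these 9 genes, 3 rose and 4 fell at day 9 (29.7%, 27.4%). From day 9 to P3, 4 rose and 2 fell (28.4%, 32.3%), and from P3 to P12, 5 rose and 1 fell (17.3%, 19.5%). Hand2, a factor of the second heart field, rose 19.6-fold from day 9 (1.69 ± 0.548 CPM) to P3 (33.0 ± 0.818 CPM). Hand1, its relative in the left ventricle, rose 19.0-fold from P3 (2.40 ± 0.125 CPM) to P12 (45.7 ± 4.16 CPM), the interval in which neither Twist gene was called. The E protein gene Tcf3 fell 2.25-fold from P3 to CM derivatives, to 15.1 ± 0.822 CPM. CM derivatives had 2 higher and 5 lower than P3 in this list (31.9%, 31.2%), and 4 higher and 3 lower than MEFs (35.9%, 34.7%). P3 had 4 higher and 4 lower than MEFs (33.3%, 32.5%).

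Among 14 genes of TGF-beta signalling, the pathway best known to induce these factors, 1 rose and 10 fell at day 9 against MEFs (29.7%, 27.4%, median -0.34). Tgfbi, a TGF-beta induced matrix protein, fell 20-fold from 280.0 ± 14.3 to 14 ± 0.700 CPM and rose 7.24-fold again at P3. From day 9 to P3, 9 rose and 3 fell (28.4%, 32.3%, median 0.44), and from P3 to P12, 2 rose and 6 fell (17.3%, 19.5%, median -0.10). CM derivatives had 4 higher and 7 lower than P3 (31.9%, 31.2%). P3 had 6 higher and 6 lower than MEFs (33.3%, 32.5%), and CM derivatives 6 higher and 4 lower (35.9%, 34.7%).

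Of 8 genes for corepressors of Snail and Zeb, 1 rose and 3 fell at day 9 (29.7%, 27.4%). From day 9 to P3, 2 rose and 2 fell (28.4%, 32.3%), and 4 fell from P3 to P12 (19.5%). P3 had 2 lower than MEFs (32.5%). In CM derivatives 7 were below P3 (31.2%) and 7 below MEFs (34.7%). In these last 4 comparisons none was higher by edgeR, at an unadjusted p under 0.05 or by DESeq2, where 17.3% to 35.9% of all genes were called higher by edgeR. Hdac1, a histone deacetylase, was 1.95-fold below P3 in CM derivatives, at 41.3 ± 2.61 CPM. Of 11 tested genes for other factors of the transition, 2 rose and 6 fell at day 9 (29.7%, 27.4%). From day 9 to P3, 4 rose and 4 fell (28.4%, 32.3%), and from P3 to P12, 2 rose and 8 fell (17.3%, 19.5%). Hmga2, a chromatin protein that induces Snail and Twist genes, was 652 ± 11.6 CPM in MEFs, 329 ± 3.39 at day 9, 63.2 ± 2.57 at P3 and 22.5 ± 6.92 in CM derivatives. Wt1, a regulator of the epicardial transition, rose 12.7-fold from day 9 to P3 (8.37 ± 0.515 CPM) and fell 12.4-fold from P3 to P12. P3 had 4 higher and 4 lower than MEFs in this list (33.3%, 32.5%). CM derivatives had 4 higher and 5 lower than P3 (31.9%, 31.2%) and 2 higher and 5 lower than MEFs (35.9%, 34.7%). The hairpins of miR-200 and miR-205, which are known to repress Zeb1 and Zeb2, gathered 1 count over all 15 libraries, and these libraries were not made for small RNA.

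The genes most like each factor were ranked by Pearson's r of log2 CPM over the 15 libraries, which fall into 5 groups that share their cells and scaling, so r is a description. For Snai1 they were Pcbp3 (r = 0.974), Eya1 (0.966) and the metalloprotease gene Mmp14 (0.965), and Mmp14 was also among those of Prrx2 (0.951), where Ldb2 stood at 0.975. For Zeb2 they were Gnai1, Smad6 and Maob, each at r = 0.988, and Smad6, an inhibitor of BMP signalling, went from 3.70 CPM in MEFs to 33.0 CPM in P12. For Prrx1 they were Crmp1 (0.991), Sulf1 (0.987) and Sh3pxd2b (0.987). For Snai2 they were Sepn1, Actr1a and Phtf1 (0.965 to 0.977), for Twist1 Crkl, Srsf9 and Bcat1 (0.982 to 0.983), and for Twist2 Arhgef2, Gnpnat1 and Eif3c (0.978 to 0.983). Among the factors themselves, Snai1 and Prrx2 were most alike (r = 0.881), Twist2 and Zeb2 most opposed (-0.864), and Snai1 and Snai2 stood at 0.0954.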

How the data were processed

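RNA was measured in 15 libraries, made from total RNA (10 µg) for an Illumina GAIIx, per the labels' protocols. The authors aligned reads with TopHat2 2.0.13 to mm9 and counted them with featureCounts of Subread, per the submitters' processing notes. Raw counts as deposited are whole numbers per gene, and all values here come from them. The deposited CPM and FPKM columns were not used, since FPKM equals CPM per length in 1 library and not in 14. No per-sample column was unmapped.

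In edgeR (4.0.16, limma 3.58.1, R 4.3.3) genes were kept with filterByExpr and scaled by TMM. All 15 libraries entered 1 quasi-likelihood fit with group means, tested 2-sided by contrasts with Benjamini-Hochberg adjustment in each. The procedure was run on simulated data in which few genes changed and all genes had the same spread, unlike the data here. That run does not bear on the scaling of the CM libraries. The SE is the log2 fold change over the square root of F. Lengths are merged exons. CM libraries had TMM factors of 0.545 to 0.643 and all others 0.973 to 1.22. Members and lists were chosen with earlier results of these data known. From each list at most 4 called genes per comparison were named, those of largest change whose higher group reached 1 CPM. Per member, the 3 named genes of highest r with at least 5 CPM in their highest group were given. Some genes that these rules name are not reported here. The floor of 3 counts covers counting error only, while SE and SD reflect the spread among libraries, which may be technical. Alternatives were RLE and upper-quartile scaling, DESeq2 (1.42.0), no filter beyond 1 count, only the 6 libraries compared, a replicate block, library sizes without mitochondrial genes, and each library left out.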

Additional observations from a re-analysis of the deposited data

How the results depend on the processing

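Over 468 values of called log2 fold changes of the 7 factors under the alternatives, 458 kept direction and call, 10 lost the call and none reversed. The losses were Zeb2 in day 9 against MEFs and Prrx1 in CM derivatives against P3. Factors called higher numbered 1 to 2 with each library left out, in day 9 against MEFs and in CM derivatives against P3. The latter count was 1 with upper-quartile scaling, without a filter beyond 1 count and with only the 6 libraries compared. Reversals were all of values that were not called. Twist1 from P3 to P12 was 0.0451 with upper-quartile scaling and ran from -0.0856 to 0.0277 with each library left out. From P3 to CM derivatives, Twist2 ran from -0.190 to 0.306, Zeb2 from -0.117 to 0.0642 and Prrx2 from -0.166 to 0.0572. The causes were not tested. Corepressor genes called lower from day 9 to P3 numbered 2 with edgeR and 1 with DESeq2. With mitochondrial genes left out of library sizes every factor kept its direction and call, while all 35 group levels in CPM were 1.46 to 1.47 times as high. Upper-quartile scaling put these levels at 0.961 to 1.05 times the values given, past 1 SD for 6 of 35, and RLE at 0.991 to 1.01 times, past it for none.

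Same-numbered libraries showed no shared deviation from their group means, with correlations of -0.038 to 0.027. Whether the replicates were paired by design is not given in the labels. With a replicate block 10218 genes were called in day 9 against MEFs instead of 10289, and the factors' calls were the same. At 14 to 32 counts per library, depth limits Twist2 in ieCPCs and CM derivatives.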

Other observations

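Gm17698 and the antisense model Gm20471 lie within the span of Prrx1 without sharing exon bases with it, and were looked at after the values of Prrx1 were seen. Gm17698 was at 20.8 ± 1.72 CPM in MEFs (SD, n = 3), 16.7 ± 1.68 at day 9, 5.42 ± 0.604 in P3 ieCPCs, 22.7 ± 1.13 in P12 ieCPCs and 8.80 ± 0.973 in CM derivatives. Its P12 and MEF libraries overlapped, while Prrx1 itself was lower at P12 than in MEFs. Gm20471 was at 6.96 ± 0.746 CPM in MEFs, 8.37 ± 1.34 at day 9, 2.44 ± 0.285 in P3 ieCPCs, 7.48 ± 0.604 in P12 ieCPCs and 4.30 ± 0.429 in CM derivatives. Gm17698 lies on the strand of Prrx1, so its reads and those of Prrx1 introns cannot be told apart under any strand setting. The strand used for counting is not given in the sources used here, so reads of the antisense model and of Prrx1 introns cannot be told apart either.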
